A study of Mus musculus with 10 samples.

Results

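Serpins are a superfamily of proteins that share one fold, and in the mouse most of their genes carry a symbol that starts with *Serpin* followed by a letter for the clade and a number. The genes described here were all protein-coding genes of the GENCODE annotation of mouse genome build GRCm38 whose symbol starts in that way, and 28 of the 12148 genes with counts belonged to them. That annotation holds 61 such genes, and those outside the 28 were not analysed here. Clade A, the clade of antitrypsin, gave 16 genes, clade B, the clade of intracellular serpins, gave 5, clade F gave 2, and clades C, D, E, G and H gave 1 each. An inhibitory serpin exposes a stretch called the reactive centre loop, which its target protease cuts, and the protease is then trapped in a covalent complex. The liver is the main source of the serpins of blood plasma, which restrain coagulation, fibrinolysis, complement and neutrophil proteases. A few members inhibit nothing and work as hormone carriers or as a collagen chaperone.

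The livers came from wild-type C57BL6 germ-free (GF) mice, of which 5 had received microbiota-derived extracellular vesicles (GF+MEV) and 5 phosphate-buffered saline alone (GF+PBS). The vesicles, small membrane particles shed by gut bacteria, were purified from gut content and stool of control mice with a normal microbiota and given by mouth at 80 μg in saline, 2 times per week for 3 weeks. The age of the GF mice was not given in the sources used here, and both groups lacked a living microbiota. Each library was the whole liver RNA of 1 mouse, so fewer cells of a type and less RNA per cell cannot be told apart.

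Libraries held between 15746119 and 20523649 counts on genes. *Alb*, the hepatocyte marker that encodes albumin, was at 76247 CPM in GF+MEV and 78079 CPM in GF+PBS livers on average, where CPM are counts scaled to the size of a library with edgeR's TMM factors. The TMM factor was 0.890 in GF+MEV replicate 2, 0.978 to 1.009 in the other GF+MEV libraries and 1.003 to 1.04 in the GF+PBS libraries. The 5 GF+PBS livers were not equally distant from each other. Over the 500 most variable genes of the GF+MEV group, a comparison chosen after the values were seen, the root mean square difference in log2 CPM was 0.50 between GF+PBS replicates 1 and 3 and 0.48 between replicates 4 and 5, against 0.64 to 0.79 for the remaining GF+PBS pairs. Where results of serpins or their partner genes changed when the alike GF+PBS livers were summed into 1 sample each, that value is given beside them. No such value is given for the cell markers or for the pseudogene named at the end. Whether their calls held in that fit is therefore not shown.

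The counts of some serpins rest on sequence that several genes share. On chromosome 12 the mouse carries a row of *Serpina1* genes, which encode forms of α1-antitrypsin, the inhibitor of neutrophil elastase, and a row of *Serpina3* genes, related to human α1-antichymotrypsin. The coding sequences of *Serpina1a* to *Serpina1e* were 96.3% to 98.5% identical to each other over 1239 aligned bases. Among the 60-base windows of their alignment, the one with the most differences held 18 positions at which the copies were not all alike, where the median window held 4. It lies in the part of the coding sequence for the reactive centre loop, and is shown because it is where the 5 copies can be told apart. The stretch, in 5′ to 3′ direction, is base 1170 to 1229 of the coding sequence of *Serpina1a* and base 1101 to 1160 in the other copies (from GENCODE transcripts), with the positions that differ in capitals.
Serpina1a: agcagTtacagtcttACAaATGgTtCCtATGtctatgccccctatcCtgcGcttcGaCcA
Serpina1b: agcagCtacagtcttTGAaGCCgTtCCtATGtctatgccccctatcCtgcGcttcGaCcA
Serpina1c: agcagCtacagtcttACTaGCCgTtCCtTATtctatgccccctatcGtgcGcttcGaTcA
Serpina1d: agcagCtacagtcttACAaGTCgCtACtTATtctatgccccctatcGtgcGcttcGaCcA
Serpina1e: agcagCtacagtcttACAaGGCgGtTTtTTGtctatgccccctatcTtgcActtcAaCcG

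Of all 100-base windows of the transcripts of *Serpina1e*, 14.4% also occurred in a transcript of another gene, as did 14.8% of those of *Serpina1b*. The share was 29.3% for *Serpina1d*, 42.8% for *Serpina1a* and 58.5% for *Serpina1c*. A read that fits several genes is usually left out or split by a counter, so the level of *Serpina1c* is the least certain of the 5. The *Serpina3* copies were further apart. *Serpina3k* and *Serpina3m* were 91.7% identical and shared 60 bases of exon in the annotation, *Serpina3n* was 82.9% identical to *Serpina3k*, and at most 6.09% of the 100-base windows of these 3 genes occurred elsewhere. Their most different 60 bases, base 1163 to 1222 of each coding sequence, held 24 differing positions, again in capitals.
Serpina3k: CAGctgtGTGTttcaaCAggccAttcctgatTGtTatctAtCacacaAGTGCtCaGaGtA
Serpina3m: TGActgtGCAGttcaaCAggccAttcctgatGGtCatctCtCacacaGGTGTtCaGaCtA
Serpina3n: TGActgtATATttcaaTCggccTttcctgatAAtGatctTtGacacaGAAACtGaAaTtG

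Serpin RNA made up a visible part of the liver transcriptome. Summed over the 28 genes it was 24644 ± 2365 CPM (SD, n = 5) in GF+PBS and 28359 ± 2305 CPM (SD, n = 5) in GF+MEV livers. The 10 *Serpina1* and *Serpina3* copies held 75.1% to 82.7% of this sum in each liver. To compare genes with each other, levels were divided by the length of all annotated exons of a gene and are given as CPM per kb. *Serpina3k* was highest at 4281 CPM per kb over all 10 livers, followed by *Serpina1d* (1947 CPM per kb), *Serpina1e* (1847 CPM per kb), *Serpina1b* (1818 CPM per kb) and *Serpina1a* (663 CPM per kb). Neighbours in this order from *Serpina1d* to *Serpina1b* overlapped between livers.

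Plasma serpins outside clade A came next. *Serpinf2*, which encodes α2-antiplasmin, the inhibitor of plasmin, was at 418 CPM per kb, *Serping1*, the C1 inhibitor of complement and contact proteases, at 304 CPM per kb, and *Serpinf1*, the secreted factor PEDF without inhibitory activity, at 289 CPM per kb. *Serpinc1*, antithrombin, and *Serpind1*, heparin cofactor II, both inhibitors of thrombin, were at 251.9 and 240.2 CPM per kb. Exons of *Serpinc1* overlap those of *Zbtb37* on the other strand over 2942 bases, and its level per kb depends on that annotated length. In all, 13 members were above 100 CPM per kb.

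The clade B genes, which act inside cells, lay between 0.735 CPM per kb for *Serpinb8* and 2.80 CPM per kb for *Serpinb9*, the granzyme B inhibitor of immune cells. *Serpine2*, which encodes protease nexin 1, was lowest of all members at 0.331 CPM per kb. This rank depends on its annotated exon length of 8287 bases. Not divided by length, its means of 1.95 CPM in GF+PBS and 3.54 CPM in GF+MEV livers were above those of *Serpina9* (1.79 and 2.93 CPM). A wide range was also seen inside clade A, where *Serpina9*, known from germinal-centre B cells, was at 0.643 CPM per kb and *Serpina3g* and *Serpina3f* at 1.10 and 1.54 CPM per kb.

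**Figure D1:**
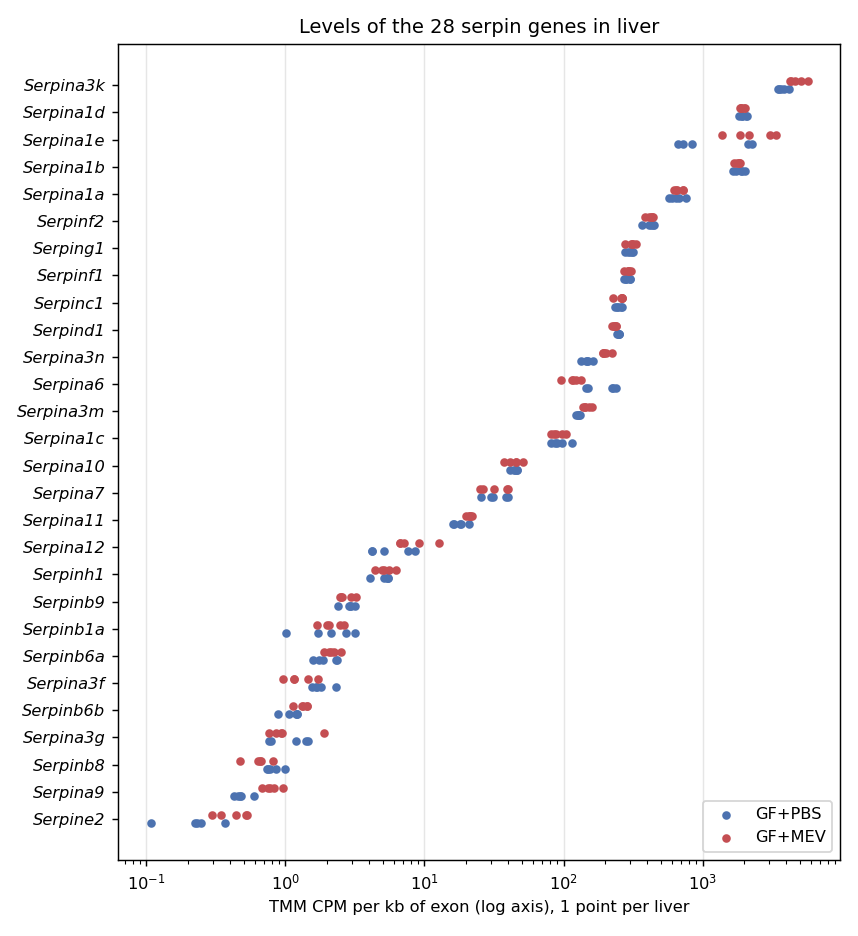
Level of each of the 28 serpin genes in TMM CPM per kb of exon on a log axis, with 1 point per liver (blue, GF+PBS; red, GF+MEV; 5 livers each). *Serpina3k* lies at the top with a mean of 4281 CPM per kb and *Serpine2* at the bottom with 0.331 CPM per kb, while the points of *Serpina1e* are spread more widely than those of the other *Serpina1* copies.

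The comparison of GF+MEV with GF+PBS livers asks how oral vesicles altered liver RNA. *Serpina3n*, *Serpina3k*, *Serpina3m* and *Serpina9* were higher in GF+MEV livers, by 0.21 to 0.71 on the log2 scale, and *Serpina6* was lower by 0.75. These 5 of 28 serpins (17.9%) passed an adjusted p of 0.05 in edgeR's quasi-likelihood test, with p-values adjusted by the Benjamini-Hochberg method over all 12147 genes tested. Over all genes, 7.64% were called, 4.12% higher and 3.52% lower. Over the 28 members the log2 fold change had a median of 0.03, against -0.0037 over all genes, and 17 members had a positive and 11 a negative value. All 5 called genes belong to clade A and lie on chromosome 12 between 103646630 and 104414329 (GRCm38). Of the 28 members, 16 belong to clade A and 15 of these lie on chromosome 12. Groups were without overlap for 6 of 28 members, 4 of them higher (these 4 called genes) and 2 lower (*Serpina6* and *Serpind1*). Over all genes 7.39% were without overlap, 3.94% higher and 3.45% lower. When the alike GF+PBS livers were summed, *Serpina3n*, *Serpina9* and *Serpina6* were past the threshold, 3 genes in place of 5, while the share of all genes called went from 7.64% to 4.62%.

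*Serpina3n* (ENSMUSG00000021091, chromosome 12, 104406729 to 104414329, plus strand) encodes a secreted inhibitor of serine proteases that is induced in the acute phase response. It was at 307, 336, 300.0, 308 and 277 CPM in GF+PBS replicates 1 to 5 and at 396, 405, 419, 463 and 399 CPM in GF+MEV replicates 1 to 5. The lowest GF+MEV value exceeded the highest GF+PBS value. The log2 fold change was 0.45 ± 0.06 (SE; adjusted p = 0.00047 by edgeR), and an exact permutation test, two-sided as all of those below, gave p = 0.00794 (n = 5 per group), the smallest p that 5 livers against 5 allow. Groups without overlap always give this p, so here and below it adds nothing to the lack of overlap. The permutation p-values were not adjusted over the members.

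*Serpina3k* (ENSMUSG00000058207, 104338486 to 104346144, plus strand), also known as contrapsin or kallikrein-binding protein, was the most abundant serpin. GF+PBS replicates 1 to 5 were at 8667, 7314, 7989, 7505 and 7224 CPM and GF+MEV replicates 1 to 5 at 9578, 10439, 8931, 11717 and 8696 CPM. The groups were apart, but narrowly, since GF+MEV replicate 5 was close to GF+PBS replicate 1. The log2 fold change was 0.35 ± 0.09 (SE; adjusted p = 0.018 by edgeR, exact permutation p = 0.00794, n = 5 per group). With the alike GF+PBS livers summed the fold change was 0.37 and no longer passed the threshold (edgeR adjusted p = 0.060).

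*Serpina3m* (ENSMUSG00000079012, 104338486 to 104394257, plus strand) was at 217, 219, 211, 227 and 223 CPM in GF+PBS and at 237, 247, 247, 263 and 276 CPM in GF+MEV livers, in replicate order. It was the smallest of the called changes, with a log2 fold change of 0.21 ± 0.04 (SE; adjusted p = 0.029 by edgeR, exact permutation p = 0.00794, n = 5 per group). This call was the least firm. It was lost without GF+MEV replicate 4 or 5 or without GF+PBS replicate 1, 2 or 3, with adjusted p-values of 0.052 to 0.081, with upper-quartile scaling (0.083) and with the alike livers summed (0.082).

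The remaining *Serpina3* copies were rare and not called. *Serpina3f* was at 4.13 ± 0.668 CPM in GF+PBS and 2.94 ± 0.686 CPM in GF+MEV livers (SD, 5 livers per group). It had a log2 fold change of -0.48 (adjusted p = 0.11 by edgeR) and, of the alternatives run, passed the threshold only without GF+MEV replicate 4 (adjusted p = 0.049). *Serpina3g* was at 2.37 ± 0.701 and 2.26 ± 0.976 CPM (SD, n = 5 each). When the counts of the 5 *Serpina3* genes were summed into one feature, its log2 fold change was 0.35 (edgeR adjusted p = 0.015), and *Serpina3k* held 92.8% to 94.2% of that sum in each liver.

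A promoter sequence in the RefSeq table used here was found for 21 of the 28 members, with 25 promoters in all, and among the called genes for *Serpina3n*. The 250 bases before its start, chr12:104406458-104406707 (GRCm38.p6, plus strand), are shown with the one match to TGTTCT or its reverse complement AGAACA in capitals, the core letters that the glucocorticoid receptor recognises, at position -183 from the start.
Serpina3n: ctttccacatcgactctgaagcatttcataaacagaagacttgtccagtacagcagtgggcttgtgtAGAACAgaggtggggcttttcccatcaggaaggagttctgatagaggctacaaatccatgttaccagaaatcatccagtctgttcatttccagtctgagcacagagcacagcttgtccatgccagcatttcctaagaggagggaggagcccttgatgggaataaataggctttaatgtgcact
Such a match was present in 19.0% of all 32851 promoters of 300 bases, searched on both strands, and in 10 of 25 promoters of serpin members, 5 of them the similar *Serpina1* copies. The full glucocorticoid element, AGAACA and TGTTCT with 3 free bases between them, was present in 3 of all 32851 promoters (0.0091%) and in 0 of 25 of the serpins. TTGCNNAA, a motif of C/EBP factors, was present in 10.8% of all promoters and in 10 of 25 of the serpins. TTCNNNGAA, a motif of STAT factors, was present in 8.30% of all promoters and in 6 of 25 of the serpins. For every motif, the 25 promoters belong to 21 members and include the 5 similar *Serpina1* copies, so they are not separate observations. A match is a description of the letters and says nothing of binding.

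*Serpina6* (ENSMUSG00000060807, chromosome 12, 103646630 to 103657212, minus strand) encodes corticosteroid-binding globulin, a plasma carrier of glucocorticoids that inhibits no protease. It was at 264, 390.1, 256, 422 and 397 CPM in GF+PBS replicates 1 to 5 and at 216, 202, 206, 169.7 and 236 CPM in GF+MEV replicates 1 to 5. All GF+MEV livers were below all GF+PBS livers, although GF+PBS replicates 1 and 3 were closer to the GF+MEV livers than replicates 2, 4 and 5 were. The log2 fold change was -0.75 ± 0.17 (SE; adjusted p = 0.0033 by edgeR, exact permutation p = 0.00794, n = 5 per group), and GF+PBS livers held 1.68 times the mean CPM of GF+MEV livers. The call held under all 18 alternatives run for the gene, with log2 fold changes from -0.84 to -0.67.

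*Serpina9* (ENSMUSG00000058260, 103994743 to 104013755, minus strand) was near the lower end of detection, with 28 to 37 counts per GF+PBS library and 39 to 57 per GF+MEV library. In CPM, GF+PBS replicates 1 to 5 were at 1.72, 1.57, 2.20, 1.77 and 1.68 and GF+MEV replicates 1 to 5 at 2.87, 3.52, 2.75, 3.03 and 2.51. The groups were apart, with a log2 fold change of 0.71 ± 0.11 (SE; adjusted p = 0.012 by edgeR, exact permutation p = 0.00794, n = 5 per group). Of the B-cell markers, *Cd79a* (log2 fold change -0.87, edgeR adjusted p = 0.0071) and *Cd79b* (-0.76, edgeR adjusted p = 0.032) were lower in GF+MEV livers, the opposite direction to *Serpina9*. The gene shares 72 exon bases with Gm28577 on the same strand.

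*Serpind1* (ENSMUSG00000022766, chromosome 16, 17331371 to 17343575, plus strand) was without overlap but not called. Its values were 549, 542, 551, 547 and 534 CPM in GF+PBS and 502, 489, 523, 522 and 502 CPM in GF+MEV livers, in replicate order. The difference was small and the spread narrow, with a log2 fold change of -0.10 ± 0.02 (SE; adjusted p = 0.25 by edgeR, exact permutation p = 0.00794, n = 5 per group).

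**Figure D2:**
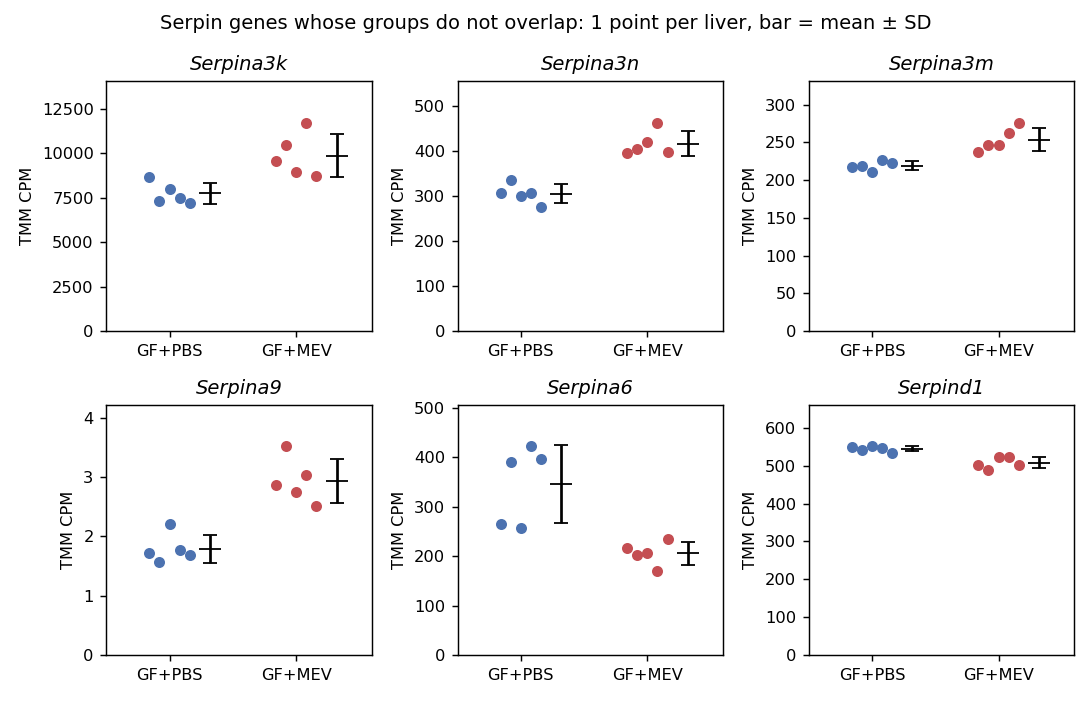
TMM CPM of the 6 serpin genes whose groups do not overlap, with 1 point per liver (blue, GF+PBS; red, GF+MEV; n = 5 each) and a bar for the mean ± SD beside each group. *Serpina6* is lower in GF+MEV livers and split within GF+PBS between 256 to 264 and 390.1 to 422 CPM, and the step in *Serpind1* is small against its level.

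The *Serpina1* copies, which hold the largest share of the family beside *Serpina3k*, did not pass the test in any fit run. *Serpina1b* was at 4908, 4024, 4567, 4625 and 4237 CPM in GF+PBS and at 4465, 4390, 4248, 4052 and 4394 CPM in GF+MEV livers, in replicate order (log2 fold change -0.05 ± 0.06, SE, with an adjusted p = 0.69 by edgeR). *Serpina1d* was at 2862, 2554, 2678, 2901 and 2674 CPM and at 2754, 2632, 2830, 2605 and 2655 CPM (log2 fold change -0.02 ± 0.04, SE, with an adjusted p = 0.89 by edgeR). *Serpina1a* was at 1383, 1046, 1183, 1233 and 1110 CPM and at 1327, 1327, 1175, 1147 and 1209 CPM (log2 fold change 0.05 ± 0.08, SE, with an adjusted p = 0.75 by edgeR). For all 3 of them the ranges of both groups overlapped. *Serpina1c*, whose exons also overlap those of B430119L08Rik on the other strand, was at 128 ± 17.7 CPM in GF+PBS and 125 ± 12.7 CPM in GF+MEV livers (SD, 5 livers per group).

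*Serpina1e* stood apart from its copies by its spread. GF+PBS replicates 1 to 5 were at 3679, 1360, 3457, 1176 and 1085 CPM and GF+MEV replicates 1 to 5 at 3026, 4958, 3469, 5429 and 2231 CPM. Of the GF+PBS livers, replicates 1 and 3 lay within the GF+MEV range and the others below all of it. The coefficient of variation was 60.4% in GF+PBS and 35.0% in GF+MEV livers, where those of *Serpina1a*, *Serpina1b*, *Serpina1c* and *Serpina1d* were between 3.50% and 13.8%. The log2 fold change was 0.83 with a standard error of 0.45 (adjusted p = 0.18 by edgeR, exact permutation p = 0.071, n = 5 per group), so the difference was within the spread between livers. Its share of the counts of the 5 copies ran from 11.7% to 28.8% in GF+PBS and from 21.0% to 40.7% in GF+MEV livers. Without *Serpina1e* the other copies summed to 8525 ± 617 CPM in GF+PBS and 8367 ± 279 CPM in GF+MEV livers (SD, 5 livers per group). With all 5 copies summed into one feature, the log2 fold change was 0.19 (edgeR adjusted p = 0.31).

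**Figure D3:**
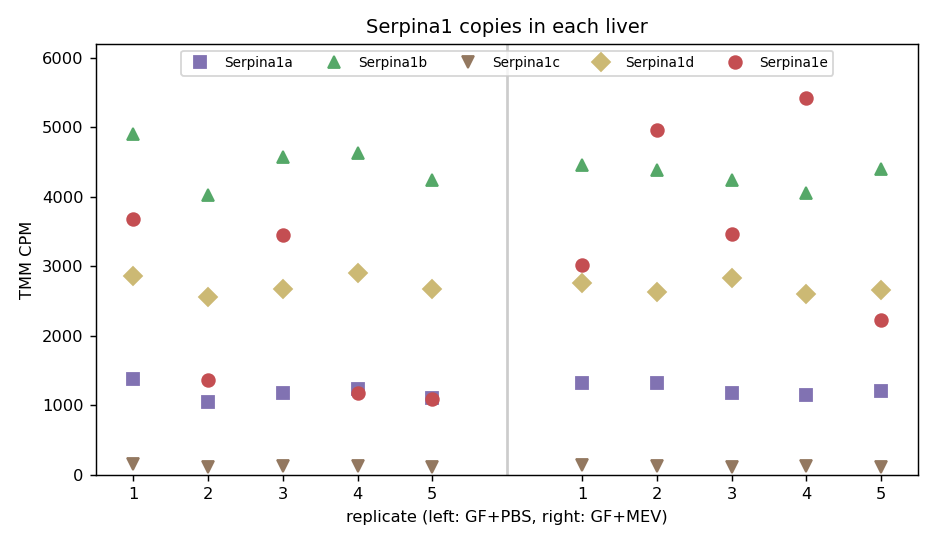
TMM CPM of the 5 *Serpina1* copies in each of the 10 livers, by replicate number (left, GF+PBS; right, GF+MEV). *Serpina1e* (red circles) ranges from 1085 to 5429 CPM, while *Serpina1b*, *Serpina1d*, *Serpina1a* and *Serpina1c* keep their order in all livers.

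The promoters of the *Serpina1* copies are nearly alike, and are shown because *Serpina1e* varied and its neighbours did not. Given are the 100 bases without gaps in the alignment that lie before the start of every copy, in GRCm38.p6 and on the minus strand, with the 10 differing positions in capitals. They are chr12:103863625-103863724 (a), chr12:103738200-103738299 (b), chr12:103904962-103905061 (c), chr12:103773634-103773733 (d) and chr12:103956960-103957059 (e). The first base lies 162 bases before the annotated start in *Serpina1e* and 100 to 111 bases before it in the other copies.
Serpina1a: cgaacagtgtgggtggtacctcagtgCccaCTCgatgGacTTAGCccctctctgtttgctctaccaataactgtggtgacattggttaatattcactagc
Serpina1b: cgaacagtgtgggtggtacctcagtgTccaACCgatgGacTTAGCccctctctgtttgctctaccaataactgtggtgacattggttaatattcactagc
Serpina1c: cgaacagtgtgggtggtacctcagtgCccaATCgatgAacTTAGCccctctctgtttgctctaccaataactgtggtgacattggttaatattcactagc
Serpina1d: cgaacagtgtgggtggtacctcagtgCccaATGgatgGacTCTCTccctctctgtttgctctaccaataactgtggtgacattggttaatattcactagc
Serpina1e: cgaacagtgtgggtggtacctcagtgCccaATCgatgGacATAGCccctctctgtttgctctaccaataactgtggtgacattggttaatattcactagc

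In GF+PBS livers, replicates 1 and 3 were the highest of their group in 6 of 28 serpins (*Serpina1e*, *Serpina12*, *Serpina3k*, *Serpinb6a*, *Serpind1* and *Serpinf2*) and the lowest in 5 (*Serpina6*, *Serpina3f*, *Serpina3g*, *Serpina3m* and *Serpina10*). This is 39.3% of the members, close to the 33.6% of all genes with such an order. *Serpina12*, which encodes the adipokine vaspin, was at 31.5 and 28.1 CPM in replicates 1 and 3 and at 19.0, 15.4 and 15.5 CPM in replicates 2, 4 and 5. The GF+MEV livers were at 26.1, 47.2, 24.6, 33.6 and 24.8 CPM, and the gene was not called (log2 fold change 0.51 ± 0.28, SE, with an adjusted p = 0.20 by edgeR).

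The rest of clade A was not called. *Serpina11* was at 34.0, 29.4, 26.4, 30.0 and 26.8 CPM in GF+PBS and at 36.1, 35.0, 32.6, 34.6 and 34.2 CPM in GF+MEV livers (log2 fold change 0.23, edgeR adjusted p = 0.069). The groups overlapped, and the gene passed the threshold without GF+PBS replicate 1 (adjusted p = 0.015) and in DESeq2 (adjusted p = 0.048). It shares 669 exon bases with Gm28577 on the same strand. *Serpina10*, the inhibitor of factor Xa that needs protein Z, was at 156 ± 7.67 and 155 ± 18.6 CPM in GF+PBS and GF+MEV livers. *Serpina7*, which encodes thyroxine-binding globulin and is the only clade A member tested that lies outside chromosome 12, on the X chromosome, was at 80.9 ± 14.9 and 79.3 ± 16.9 CPM (SD, n = 5 each). In order along chromosome 12, the called genes were the second (*Serpina6*), the ninth (*Serpina9*) and the last 3 of the 15 tested (*Serpina3m*, *Serpina3k* and *Serpina3n*), and *Serpina6* lay between *Serpina10* and *Serpina1b*, neither of which was called.

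None of the 12 members outside clade A was called by edgeR, with 2 of them, *Serpinb8* and *Serpine2*, at an unadjusted p under 0.05. DESeq2 and limma-voom each called 1 of the 12, *Serpine2*. Of the plasma serpins, *Serpinc1* was at 2127 ± 105 CPM in GF+PBS and 2179 ± 127 CPM in GF+MEV livers, *Serpinf2* at 969.7 ± 76.5 and 974 ± 51.4 CPM, *Serping1* at 697 ± 40.3 and 716 ± 43.0 CPM and *Serpinf1* at 677 ± 28.1 and 687 ± 27.5 CPM (SD, n = 5 each). Their log2 fold changes were between 0.01 and 0.04, with standard errors of 0.04 to 0.06. *Serpinh1*, the collagen chaperone HSP47 of the endoplasmic reticulum, was at 12.4 ± 1.47 and 12.8 ± 1.65 CPM (SD, n = 5 each).

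*Serpine2* was at 3.05, 0.897, 1.84, 1.92 and 2.04 CPM in GF+PBS and at 2.87, 3.66, 4.39, 4.32 and 2.44 CPM in GF+MEV livers, in replicate order, from 16 to 91 counts per library. GF+PBS replicate 1 lay within the GF+MEV values. The log2 fold change was 0.86 ± 0.31 (SE; adjusted p = 0.056 by edgeR, exact permutation p = 0.024, n = 5 per group). It passed the threshold without GF+PBS replicate 1 (edgeR adjusted p = 0.018) or without GF+MEV replicate 5 (edgeR adjusted p = 0.040), in DESeq2 (adjusted p = 0.016) and in limma-voom (adjusted p = 0.049).

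The clade B genes were all rare. *Serpinb8*, an inhibitor of furin, was at 3.94 ± 0.505 CPM in GF+PBS and 3.11 ± 0.589 CPM in GF+MEV livers, *Serpinb6b* at 2.52 ± 0.322 and 3.01 ± 0.282 CPM, and *Serpinb9* at 9.96 ± 1.02 and 9.58 ± 1.15 CPM (SD, n = 5 each). *Serpinb1a*, an inhibitor of neutrophil proteases, ran from 2.34 to 7.34 CPM in GF+PBS and from 3.86 to 6.12 CPM in GF+MEV livers. *Serpinb6a*, an inhibitor of cathepsin G, was at 10.6 ± 1.84 and 11.7 ± 1.28 CPM (SD, n = 5 each), and its exons overlap those of *Nqo2* and *Ripk1* on the other strand.

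**Figure D4:**
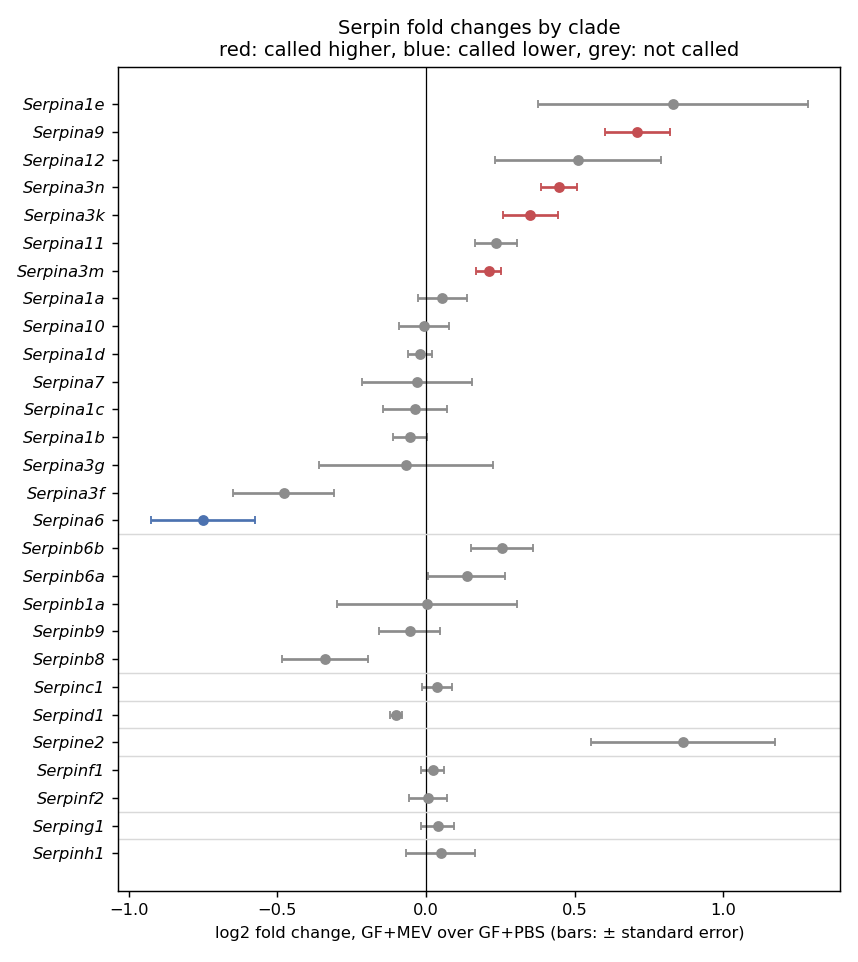
Log2 fold change of GF+MEV over GF+PBS for the 28 serpin genes, sorted within clade, with bars of ± 1 standard error (red, called higher; blue, called lower; grey, not called). The called genes are all in clade A, from -0.75 for *Serpina6* to 0.71 for *Serpina9*, and *Serpina1e* and *Serpine2* have larger values with wider bars.

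Genes that work with serpins were taken as lists written from general knowledge. Of 25 target proteases, 16 were tested and none was called by edgeR, with a median log2 fold change of 0.06. At an unadjusted p under 0.05 in edgeR there were 3 of them, and DESeq2 and limma-voom each called 2, *Ctsl* and *Plau*, which are named for that reason. *Ctsl* (cathepsin L) had a log2 fold change of 0.16 (adjusted p = 0.065 by edgeR) and *Plau* (urokinase), at 0.584 CPM in GF+MEV livers, one of -0.99 (adjusted p = 0.057 by edgeR). *F2* (thrombin), the target of *Serpinc1* and *Serpind1*, was at 2133 ± 73.2 CPM in GF+PBS and 2150 ± 102 CPM in GF+MEV livers and *Plg*, which gives the plasmin bound by *Serpinf2*, at 1962 ± 34.2 and 2102 ± 99.4 CPM (SD, n = 5 each). *Proc* (protein C) was at 718 ± 50.6 and 728 ± 42.2 CPM (SD, n = 5 each).

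Of 11 cofactors and clearance receptors, 9 were tested and 2 were called (22.2%), both higher, where 7.64% of all genes were called. The list is short, and the share over all lists is given below. *Thbd*, which encodes thrombomodulin, the endothelial cofactor of thrombin, had a log2 fold change of 0.72 (adjusted p = 0.018 by edgeR) and *Pros1*, protein S, one of 0.22 (edgeR adjusted p = 0.034). *Vtn*, which encodes vitronectin, was at 2309 ± 130 and 2372 ± 96.7 CPM (SD, n = 5 each). *Lrp1*, a receptor that clears serpin-protease complexes, was at 849 ± 144 and 956 ± 141 CPM (SD, n = 5 each), and *Proz*, the partner of *Serpina10*, at 503 ± 29.2 and 505 ± 12.3 CPM (SD, n = 5 each). All 12 collagen genes served by *Serpinh1* were tested and had positive log2 fold changes of 0.10 to 0.41. Over all 12147 genes, 5949 were positive. Among the GF+MEV livers, *Col1a1*, *Col1a2*, *Col3a1*, *Col5a2*, *Col6a1*, *Col6a2*, *Col6a3* and *Col14a1* were highest in replicate 5. *Col4a1*, *Col4a2* and *Col5a1* were highest in replicate 3, and *Col18a1* in replicate 4. Many thus shared the liver with the highest value, so the 12 genes are not separate observations. Groups were without overlap for 1 of the 12, *Col18a1*, against 7.39% of all genes. None of the 12 collagen genes was called by edgeR, with 2 at an unadjusted p under 0.05, or by DESeq2 or limma-voom. The most abundant were *Col18a1* (0.12, edgeR adjusted p = 0.21), *Col14a1* (0.12, edgeR adjusted p = 0.68) and *Col4a1* (0.14, edgeR adjusted p = 0.48).

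*Agt*, a serpin by fold that encodes angiotensinogen, had a log2 fold change of 0.17 (adjusted p = 0.094 by edgeR) and was called by DESeq2 but not by limma-voom. Among 24 other secreted inhibitors, 20 were tested, and *Mug1*, a murinoglobulin that traps proteases, was called higher (log2 fold change 0.33, edgeR adjusted p = 0.025), as was *Itih3*, an inter-α-trypsin inhibitor heavy chain (0.26, edgeR adjusted p = 0.046). Not called were the abundant *Ahsg* (0.17, edgeR adjusted p = 0.17), *Pzp* (0.09, edgeR adjusted p = 0.47) and *Ambp* (-0.05, edgeR adjusted p = 0.74). Over all lists 4 of 58 tested partner genes were called, 6.90%, against 7.64% of all genes. None of the 58 was called with the alike GF+PBS livers summed or without GF+PBS replicate 4.

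**Figure D5:**
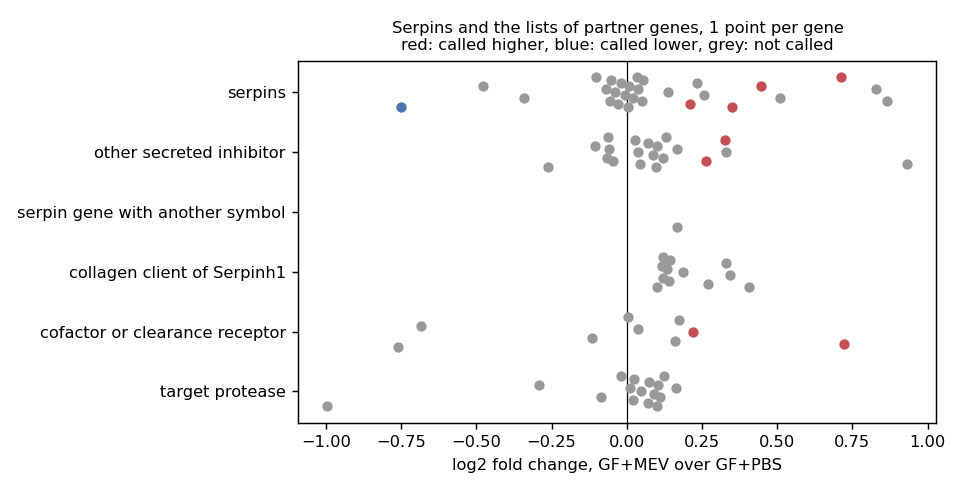
Log2 fold change of GF+MEV over GF+PBS for the 28 serpins and the 58 tested partner genes in 5 lists, with 1 point per gene (red, called higher; blue, called lower; grey, not called). The collagen genes all lie between 0.10 and 0.41 and none is called, and the target proteases hold no gene called by edgeR.

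Markers of liver cells were read beside these values, in short lists. Over all genes, 7.64% were called by edgeR. Of the 5 tested hepatocyte markers, *Hnf4a* (log2 fold change 0.45, edgeR adjusted p = 0.00036) and *Cps1* (0.38, edgeR adjusted p = 0.041) were called higher. *Apoa1* (0.20), *Alb* (-0.03) and *Apoa2* (-0.14) were not called, and the sum of the 5 ran from 84966 to 104056 CPM in GF+MEV and from 89239 to 105401 CPM in GF+PBS livers. None of 6 macrophage and none of 6 stellate cell markers was called by edgeR, with 0 and 1 at an unadjusted p under 0.05, or by DESeq2 or limma-voom. Their sums ran from 162 to 332 CPM and from 133 to 199 CPM in GF+MEV, and from 194 to 283 CPM and from 162 to 178 CPM in GF+PBS livers. All 6 macrophage markers were highest in replicate 4 among the GF+MEV livers, so they are not separate observations. There *Marco* was at 21.2 CPM (1.28 to 2.17 CPM in the other GF+MEV livers) and *Clec4f* at 101 CPM (69.7 to 86.5 CPM). The same liver was the lowest of its group in the hepatocyte markers *Alb* (64586 CPM), *Apoa1* (9659 CPM) and *Apoa2* (5362 CPM). In *Cps1* and *Hnf4a* it was not the lowest. That liver also held the group's highest *Serpina3k*, *Serpina3n* and *Serpina1e* and lowest *Serpina6*, but not its highest *Serpina3m* or *Serpina9*. Of 6 endothelial markers *Clec4g* was called lower and *Lyve1* higher, and the sum ran from 98.9 to 159 CPM in GF+MEV and from 123 to 161 CPM in GF+PBS livers. Of 3 tested markers of cholangiocytes, *Krt19* was called higher (log2 fold change 3.87 ± 0.70, SE), and *Spp1* (0.52, edgeR adjusted p = 0.13) and *Sox9* (-0.98, edgeR adjusted p = 0.10) were not called. *Krt19* was rare, at 0.303 to 0.781 CPM in GF+PBS livers and at 5.67, 16.8, 8.21, 9.32 and 0.964 CPM in GF+MEV replicates 1 to 5. The 3, mostly *Spp1*, summed to 28.1 to 79.3 CPM in GF+MEV and 23.2 to 29.7 CPM in GF+PBS livers. Of the T, NK or B cell markers only the B-cell genes *Cd79a*, *Cd79b* and *Ms4a1* were tested. These 3 summed to 2.48 to 3.66 CPM in GF+MEV and 5.04 to 6.42 CPM in GF+PBS livers. T and NK cell markers were not analysed. The 2 platelet markers and the 1 pancreas marker tested were not called by edgeR (0 at an unadjusted p under 0.05), DESeq2 or limma-voom, and neutrophil markers were not analysed here. The part of these cells in the serpin values was not tested.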

How the data were processed

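Liver RNA of 10 GF mice, 5 per group, was measured by RNA sequencing. The authors aligned the reads to GRCm38 with STAR 2.7.3a, counted them per gene with HTSeq, left out genes with fewer than 20 counts across samples and deposited raw counts. The strand setting, annotation and treatment of reads that fit several genes were not given in the sources used here. Reads of overlapping genes therefore cannot be told apart. A further 5 value columns could be matched to no sample and stayed out.

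Genes with at least 20 counts over the 10 libraries (12147 of 12148) were tested with edgeR 4.0.16 (R 4.3.3), using TMM factors, a quasi-likelihood fit on treatment alone and Benjamini-Hochberg adjustment over all genes at 0.05. Standard errors were taken from the variances of log2 CPM (prior count 2) in both groups. Each member was also compared in mean CPM with exact permutation tests (two-sided). p-values set the difference between the groups against the spread between livers, which the tests take as independent. Anything that the livers of a group had in common is not covered by them. Symbols, positions and exon lengths came from the GENCODE annotation of GRCm38, promoters from RefSeq (GRCm38.p6). Sequences were aligned with MAFFT. Alternatives were DESeq2 1.42.0, limma-voom (limma 3.58.1), other normalizations and filters, a replicate block, summed copies, summed alike livers and each liver left out. Every member was named. Members that were called, were without overlap or were among the 5 highest per kb were given in every liver, as were, after their values were seen, *Serpina11*, *Serpina12* and *Serpine2*. Of each partner list the called genes and up to 3 of the most abundant others were named. Markers and the pseudogene were picked for naming with their values in view. The members and lists were chosen with earlier results of these data known.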

Additional observations from a re-analysis of the deposited data

Results flagged for a closer look

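In 3 of 56 groups of 5 values (28 serpins in both treatment groups), 1 liver had a gap to its nearest neighbour that was over 0.71 of the range of the group (the 95% limit of Dixon's test), where chance alone gives about 2.8 such groups. *Serpina3g* was at 3.99 CPM in GF+MEV replicate 4 and at 1.59 to 1.99 CPM in the other GF+MEV livers. *Serpinc1* was at 1954 CPM in GF+MEV replicate 4 and at 2204 to 2259 CPM in the rest of its group. *Serpinh1* was at 9.86 CPM in GF+PBS replicate 2 and at 12.5 to 13.4 CPM in the rest of its group. None of these genes was called.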

How the results depend on the processing

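Serpins called numbered 5 in the reported fit, 7 in DESeq2 (6 higher and 1 lower), 3 with the alike GF+PBS livers summed, 3 of 20 features with the *Serpina1* and the *Serpina3* copies summed (fewer features by construction), and 4 to 6 with each liver left out. All genes called numbered 928, 1201 in DESeq2, 561 with the alike livers summed and 696 to 926 with each liver left out. Upper-quartile scaling called 1040 genes, of which 41.2% were higher, against 53.9% in the reported fit. Partner genes called numbered 4, 7 in DESeq2, 1 with a replicate block, 0 with the alike livers summed and 0 to 4 with each liver left out. *Serpina3n*, *Serpina9* and *Serpina6* were past the threshold under all 18 alternatives, *Serpina3k* under 17 and *Serpina3m* under 10. For *Serpina3m*, the exact permutation test on CPM without TMM factors gave p = 0.071.

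Deviations of same-numbered livers correlated at -0.19 to 0.17, which cannot settle whether the replicate numbers pair the livers. With the replicate block 792 genes and 4 serpins were called, and *Serpina3m* was not (adjusted p = 0.071). GF+MEV replicates 1 and 5 correlated best with the GF+PBS liver of their own number, and replicates 2, 3 and 4 with another.

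Values near 0 changed sign, and none of these genes was called in any fit. With upper-quartile scaling the log2 fold change was -0.039 for *Serpinb1a*, -0.0075 for *Serpinc1*, -0.021 for *Serpinf1*, -0.037 for *Serpinf2* and -0.0028 for *Serping1*. With the alike livers summed it was 0.0030 for *Serpina1d*, 0.032 for *Serpina7* and -0.072 for *Serpinb1a*. In CPM without TMM factors the difference in means turned to -18.8 for *Serpina1a*, -0.242 for *Serpinb1a*, -60.9 for *Serpinc1*, -25.5 for *Serpinf1*, -44.8 for *Serpinf2*, -17.7 for *Serping1* and -0.198 for *Serpinh1*. With each liver left out, log2 fold changes ran from -0.068 to 0.048 for *Serpina10*, -0.090 to 0.042 for *Serpina1c*, -0.044 to 0.0018 for *Serpina1d*, -0.38 to 0.049 for *Serpina3g*, -0.11 to 0.049 for *Serpina7*, -0.17 to 0.19 for *Serpinb1a*, -0.039 to 0.038 for *Serpinf2* and -0.023 to 0.11 for *Serpinh1*. The cause was not tested.

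The 7 members with a mean under 5 CPM rest on the fewest counts, and the part of depth in their values was not tested.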

Other observations

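*Serpina4-ps1* (ENSMUSG00000092075), an unprocessed pseudogene by its annotation and so outside the family as defined here, was singled out after its values were seen. It was at 48.2, 26.2, 46.7, 41.6 and 40.8 CPM in GF+PBS replicates 1 to 5 and at 81.4, 87.3, 96.7, 144 and 51.1 CPM in GF+MEV replicates 1 to 5. The groups were without overlap, with a log2 fold change of 1.18 ± 0.29 (SE; adjusted p = 0.0037 by edgeR), a larger value than that of any of the 28 protein-coding members.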
